A study of Mus musculus with 24 samples.

Results

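The genes described here are the mitochondrial ribosomal protein genes, taken as every gene in the deposited tables whose symbol is Mrpl or Mrps followed by a number and at most 1 letter. The rule gave 78 of 56941 genes, 49 with Mrpl symbols and 29 with Mrps symbols, and all 78 passed the filter on low counts. The samples were 2D muscle tissues of C2C12, a line of mouse myoblasts that form contracting myotubes, and in every group, the controls included, the cells carried ChR2::tdTomato, a channelrhodopsin that opens in blue light and is tagged with a red fluorescent protein. Tissues on grooved fibrin received 60 min of blue light each day at 1, 4, or 10 Hz from the start of differentiation, or no stimulation (Control), with 6 biological replicates in each of the 4 groups. Because no group received light without the channel, an effect of light and an effect of contraction cannot be told apart, and in these bulk samples fewer cells of a type and less RNA per cell cannot be told apart either.

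The mitochondrial ribosome translates the few mRNAs of the mitochondrial genome, all of which encode subunits of the respiratory chain and of ATP synthase. Its rRNAs are transcribed inside the organelle, whereas its proteins are encoded in the nucleus, made in the cytosol, and imported. It descends from the bacterial ribosome, so that many of its proteins have a bacterial counterpart and the others were added in the course of mitochondrial evolution. In muscle, which depends on oxidative metabolism, this machinery is needed to build the respiratory chain.

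By role, 30 of the 78 genes encode large-subunit proteins with a bacterial counterpart and 21 encode large-subunit proteins found only in mitochondria. Another 16 encode small-subunit proteins with a bacterial counterpart, and 10 encode small-subunit proteins found only in mitochondria. The symbols do not follow the subunits throughout. Mrps18a and Mrps30 encode proteins of the large subunit and are counted there, among those found only in mitochondria. Mrps18a stands in that class although it shares a bacterial ancestor with Mrps18b and Mrps18c. Mrps36 carries the family name but encodes a component of the 2-oxoglutarate dehydrogenase complex, so it stands outside these classes.

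Total estimated counts per library ran from 8052369 to 18159144. The 10 muscle markers were all present, with a summed level of 9543 to 16712 TPM (transcripts scaled to a fixed total, which corrects the level for transcript length) over the 24 libraries. The 6 proliferation markers summed to 21.8 to 34.02 TPM in the controls, 23.5 to 44.2 TPM at 1 Hz, 18.1 to 29.9 TPM at 4 Hz, and 29.1 to 40.1 TPM at 10 Hz, with Mki67 alone of them under 1 TPM in every library. The 3 blood markers summed to 55.1 to 102 TPM over all libraries, with Hbb-bs and Ptprc under 1 TPM throughout, so that the sum was almost all Cd68. The endothelial markers Cdh5, Kdr, and Pecam1 were under 1 TPM in every library. The part of proliferating or other cells in the results below was not tested. In 5 libraries, replicates 4 and 6 at 1 Hz and replicates 1, 3, and 4 at 4 Hz, long transcripts had lower counts relative to short ones. A slope on log2 transcript length over all genes tested was fitted for each library. It was taken on log2 CPM (counts scaled to a fixed library total, not corrected for length) less the gene's mean over the 24 libraries. Slopes are therefore relative between libraries. They were -0.20 to -0.13 in the 5 libraries, compared with -0.0018 to 0.092 in the controls and -0.035 to 0.129 at 10 Hz. The remaining libraries ran from -0.011 to 0.094 at 1 Hz and from -0.043 to 0.018 at 4 Hz. Leaving out the 5 libraries therefore left a mean slope of -0.020 at 4 Hz (n = 3), beside 0.064 in the controls. The sample labels state that low-input samples were ribodepleted in place of poly(A) selection without saying which, so library preparation and these 5 libraries cannot be matched from the labels.

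The level of the mitochondrial ribosomal protein genes was high and uneven in unstimulated tissue. The median over the 78 genes was 53.7 TPM, compared with 15.6 TPM over all 13315 genes tested, and the sum was 5312 ± 276 TPM (SD, n = 6). The highest levels were those of Mrpl33, a small large-subunit protein with a bacterial counterpart (274 ± 35.1 TPM), and Mrpl30 (266 ± 16.5 TPM), followed by the mitochondria-specific Mrpl42 (212 ± 9.19 TPM) and Mrpl52 (211 ± 19.1 TPM). The first pair differed by less than their spread, and so did the second.

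The lowest levels were those of Mrpl55 (14.4 ± 2.47 TPM), Mrpl1, which belongs to the stalk at which tRNAs leave the ribosome (16.0 ± 1.04 TPM), Mrpl41 (18.9 ± 3.03 TPM), and Mrpl46 (20.9 ± 1.56 TPM). Neighbours in this order lay within the spread of each other. From Mrpl55 to Mrpl33 the range was 19.0-fold, although the products of these genes enter the same particle. Large-subunit symbols had a median of 58.0 TPM and small-subunit symbols one of 50.3 TPM, which is close given a range of 14.4 to 274 TPM in the first set and 21.4 to 201 TPM in the second.

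**Figure D1:**
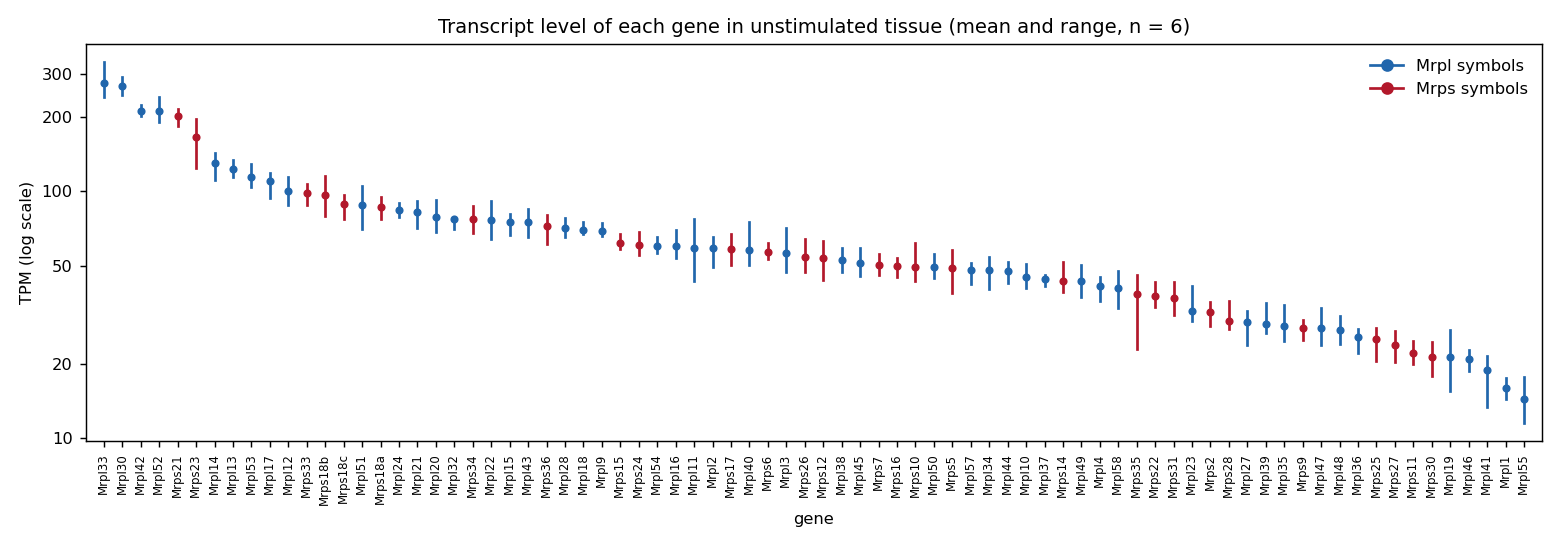
Level of each of the 78 mitochondrial ribosomal protein genes in the 6 unstimulated tissues, in TPM on a log axis, with a point for the mean and a bar from the lowest to the highest library, in blue for Mrpl and red for Mrps symbols. Levels fall from 274 TPM for Mrpl33 to 14.4 TPM for Mrpl55, and both colours occur over most of the range.

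The transcripts of these genes are short. Relative to the median gene tested, the effective length that salmon used had a median of 0.350 over the 78 genes and lay under 1 for 75 of them. Mrpl52 had the shortest at 0.09999 and Mrps30 the longest at 1.41. This length sets how the values below have to be read, because CPM and TPM moved apart in the 5 libraries named above.

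Summed over the 78 genes, the controls had 2525 to 2864 CPM with a median of 2672 CPM. At 1 Hz the lowest, median, and highest libraries had 2399, 2613, and 3579 CPM, at 4 Hz 2695, 3082, and 3533 CPM, and at 10 Hz 2473, 2634, and 2891 CPM. The highest values, 3198 to 3579 CPM, were those of the 5 libraries. Without them the 4 remaining libraries at 1 Hz averaged 2523 ± 108 CPM (SD) and the 3 remaining at 4 Hz 2816 ± 139 CPM, beside 2685 ± 129 CPM in the controls (n = 6).

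On the TPM scale the same sum was nearly level. The means were 5312 ± 276 TPM in the controls, 5116 ± 333 TPM at 1 Hz, 5317 ± 336 TPM at 4 Hz, and 5226 ± 158 TPM at 10 Hz (SD, n = 6 each), so that the group means lay within 1 SD of each other. As a description over the 24 libraries, the summed CPM had a correlation of -0.93 with the length slope (Spearman's rho -0.89) and the summed TPM one of -0.46 (rho -0.45). The slope and the CPM come from the same libraries, and the 78 short genes are among the genes that define it.

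**Figure D2:**
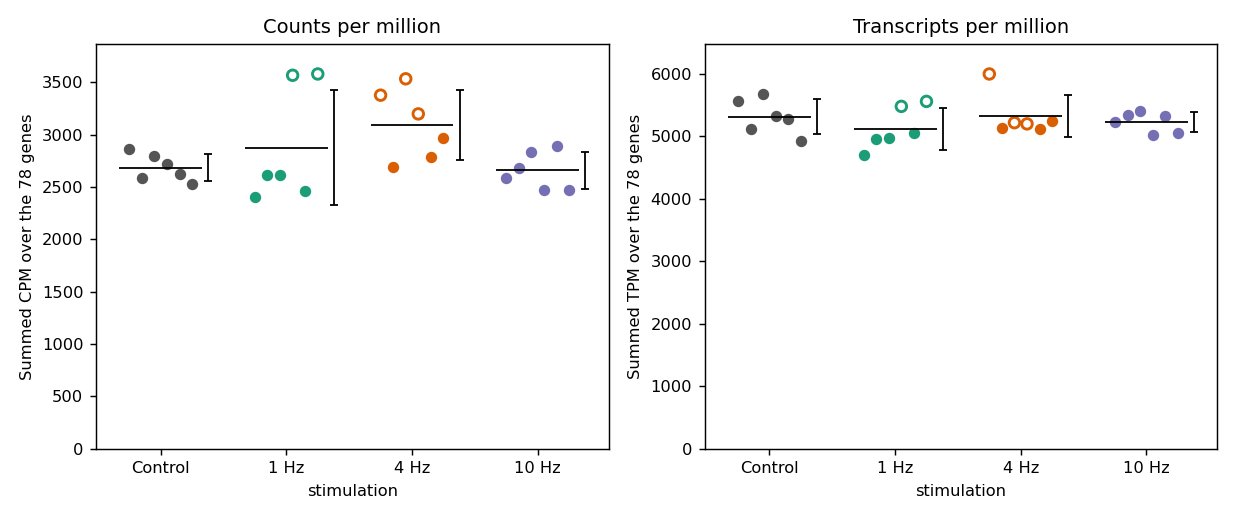
Summed level of the 78 mitochondrial ribosomal protein genes in each of the 24 libraries, as CPM (left) and as TPM (right), by stimulation, with open circles for the 5 libraries in which long transcripts were low, a line for the group mean, and a bar for the SD (n = 6). The open circles reach 3198 to 3579 CPM, above all other libraries, whereas in TPM only 1 of them, 4 Hz replicate 1 at 5995 TPM, stands above the range of the controls.

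Stimulation at 4 Hz was accompanied by the most changes among these genes in the comparison of counts, as it was among all genes tested. At a Benjamini-Hochberg adjusted p under 0.05 in the quasi-likelihood test of edgeR, 33 of the 78 genes were higher than in the controls and 7 were lower. The same test called 27.5% of all genes tested higher and 23.9% lower. In either direction it called 40 of the 78 genes (51.3%) and 51.4% of all genes tested. The median log2(fold change) was 0.15 over the 78 genes and 0.06 over all genes tested. In 12 genes every 4 Hz library lay above every control library, and in 2 genes every one lay below, where the shares over all genes tested were 12.9% and 14.7%. A log2(fold change) beyond 0.5 as well was found in 14 higher genes and in 1 lower gene, Mrps17, compared with 12.8% and 12.3% of all genes tested.

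This direction depended on the scale of the values and on how transcript length was treated. When a smooth curve on transcript length was removed from each library, 8 genes were higher and 27 lower at 4 Hz, with a median of -0.06, while over all genes tested 24.8% were higher and 24.5% lower. With limma on log2(TPM + 1), 8 genes were higher and 29 lower, with a median of -0.14 beside one of -0.21 over all genes tested, of which 5.83% were higher and 35.9% lower. Without the 5 libraries, 11 were higher and 6 lower, with a median of 0.05, compared with 16.9% and 19.9% of all genes. An offset of each gene's own effective length in each library left 29 higher and 4 lower, compared with 23.5% and 21.3% of all genes tested.

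Split by effective length, the 26 shortest of the 78 genes had 20 higher and 1 lower at 4 Hz with a median log2(fold change) of 0.42, the middle 26 had 13 higher and 1 lower with a median of 0.25, and the longest 26 had 0 higher and 5 lower with a median of -0.02. Over all genes tested, 27.5% were higher and 23.9% lower. Spearman's rho between log2(fold change) and length was -0.66 over the 78 genes and -0.37 over all 13315 genes tested, and genes are not independent replicates. After the length curve these were -0.19 and -0.0055, the second near 0 by construction because the curve is fitted over all genes. On log2(TPM + 1) they were -0.62 and -0.39, and with the length offset -0.62 and -0.36, so both kept the relation. The share of length in the change of any gene was not tested apart from these fits.

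**Figure D3:**
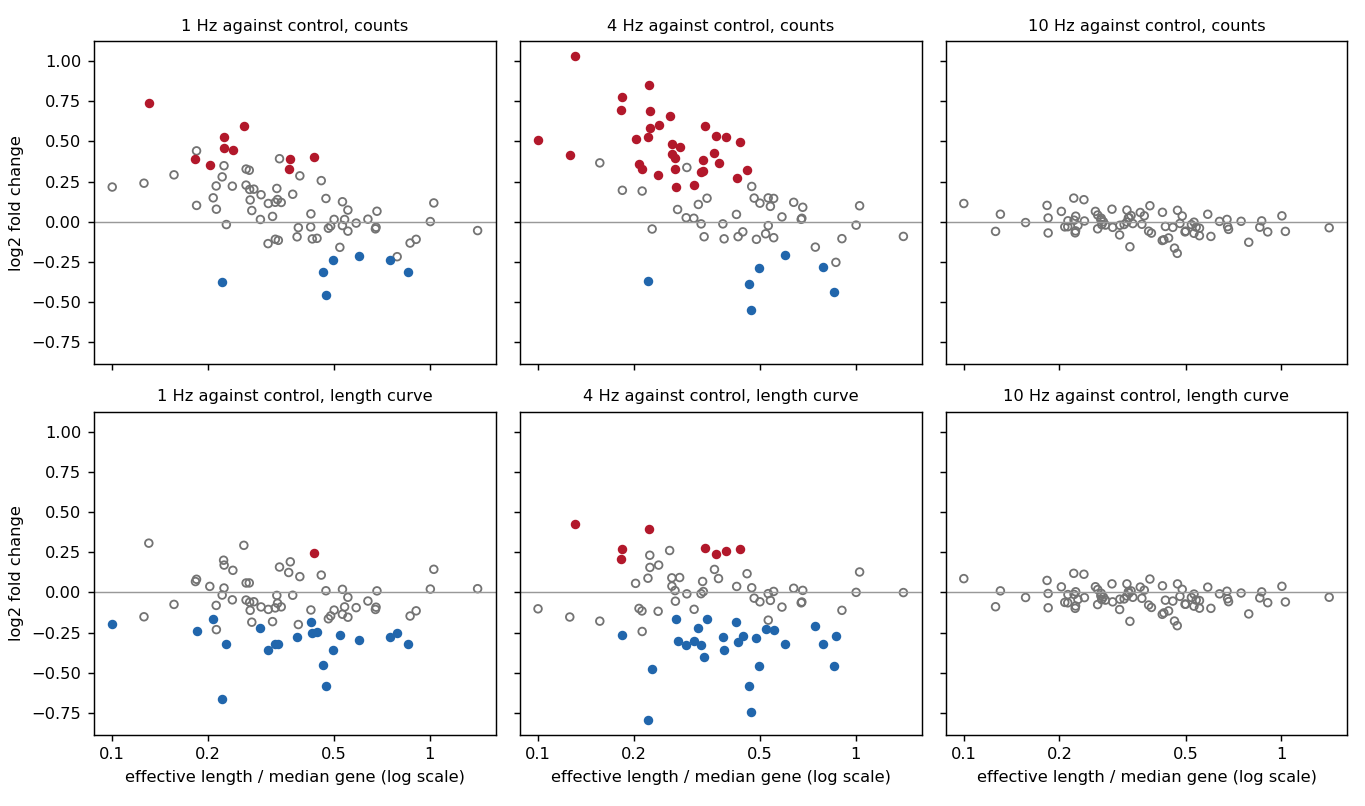
Log2(fold change) against the controls of each of the 78 mitochondrial ribosomal protein genes, plotted on the effective transcript length relative to the median gene (log axis), for 1, 4, and 10 Hz, with the fit of counts above and the fit with a length curve below. Red points were higher and blue points lower at an adjusted p under 0.05, and open points were not called. At 4 Hz the red points sit among the short transcripts in the upper row, and 8 of them remain beside 27 blue ones in the lower row, whereas no point is called at 10 Hz.

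The 5 genes Mrpl13, Mrpl14, Mrpl33, Mrpl53, and Mrpl54 were higher at 4 Hz in every fit that was run, including those that treated length, those without the 5 libraries, and those that left out each library in turn. Mrpl13, Mrpl53, and Mrps22 below were singled out after their values were seen. All 5 encode proteins of the large subunit, of which Mrpl14 sits at the face that meets the small subunit. In each of the 5, every 4 Hz library lay above every control library.

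Mrpl33 had the largest fold change of the 78 genes in the comparison of counts. Its lowest, median, and highest values were 47.2, 51.6, and 65.1 CPM in the controls and 71.1, 91.8, and 193 CPM at 4 Hz, and the log2(fold change) was 1.03 ± 0.25 (SE, adjusted p = 0.0016). After the length curve it was 0.42, and without the 5 libraries 0.61. The values at 1 Hz ran from 46.5 to 138 CPM and overlapped the controls, and at 10 Hz they ran from 44.2 to 70.2 CPM.

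Mrpl14 had 29.8, 34.5, and 39.5 CPM in the controls and 43.3, 58.7, and 82.1 CPM at 4 Hz (log2(fold change) 0.78 ± 0.18, adjusted p = 0.00088). Mrpl54 had the smallest p of the 78 genes at 4 Hz. It had 14.9, 15.8, and 18.3 CPM in the controls and 20.9, 25.5, and 32.4 CPM at 4 Hz (0.70 ± 0.12, adjusted p = 3.5e-05). Both kept a smaller change after the length curve, 0.27 for Mrpl14 and 0.21 for Mrpl54, and at 10 Hz 1 library of each gene lay above all controls.

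Mrpl53 had 33.9, 36.9, and 43.2 CPM in the controls and 46.6, 60.2, and 110 CPM at 4 Hz (0.85 ± 0.21, adjusted p = 0.0017). Mrpl13 had 56.8, 61.3, and 66.6 CPM in the controls and 71.7, 86.5, and 134 CPM at 4 Hz (0.60 ± 0.17, adjusted p = 0.0050). In these genes too the highest 4 Hz values came from the 5 libraries, and the change without them was 0.44 for Mrpl53 and 0.28 for Mrpl13.

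Mrpl22 and Mrps22 were lower at 4 Hz in every fit. Mrpl22 lines the tunnel through which the new protein leaves the large subunit, and Mrps22 is a mitochondria-specific protein of the small subunit. Mrpl22 had 21.5, 25.9, and 29.2 CPM in the controls and 16.6, 19.7, and 22.3 CPM at 4 Hz, with 5 of 6 libraries below all controls (log2(fold change) -0.37 ± 0.10, adjusted p = 0.0046). It is short, at 0.222 of the median gene, and the change was larger after the length curve (-0.79) and without the 5 libraries (-0.46). The 4 Hz library within the range of the controls, replicate 1 with 22.3 CPM, was among the 5. The part of length in this change was not tested. Mrps22 had 23.2, 25.1, and 27.3 CPM in the controls and 16.2, 18.6, and 24.8 CPM at 4 Hz (-0.38 ± 0.11, adjusted p = 0.0046, and -0.58 after the length curve).

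Mrps17, a small-subunit protein that binds the rRNA, showed the largest decrease at 4 Hz in the comparison of counts. It had 42.0, 43.6, and 47.6 CPM in the controls and 25.5, 29.8, and 36.5 CPM at 4 Hz, and every 4 Hz library lay below every control (-0.55 ± 0.10, adjusted p = 9.9e-05). It was lower with the length curve (-0.74), on log2(TPM + 1) (-0.49), and without the 5 libraries (-0.63), but with the offset of its own effective length the value was -0.18 and was no longer called. Mrps2, also of the small subunit and named after its values were seen, had 36.9 to 43.6 CPM in the controls and 22.3 to 36.7 CPM at 4 Hz, without overlap (-0.44, adjusted p = 0.0023). Without the 5 libraries it had -0.23 and was not called (adjusted p = 0.083).

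**Figure D4:**
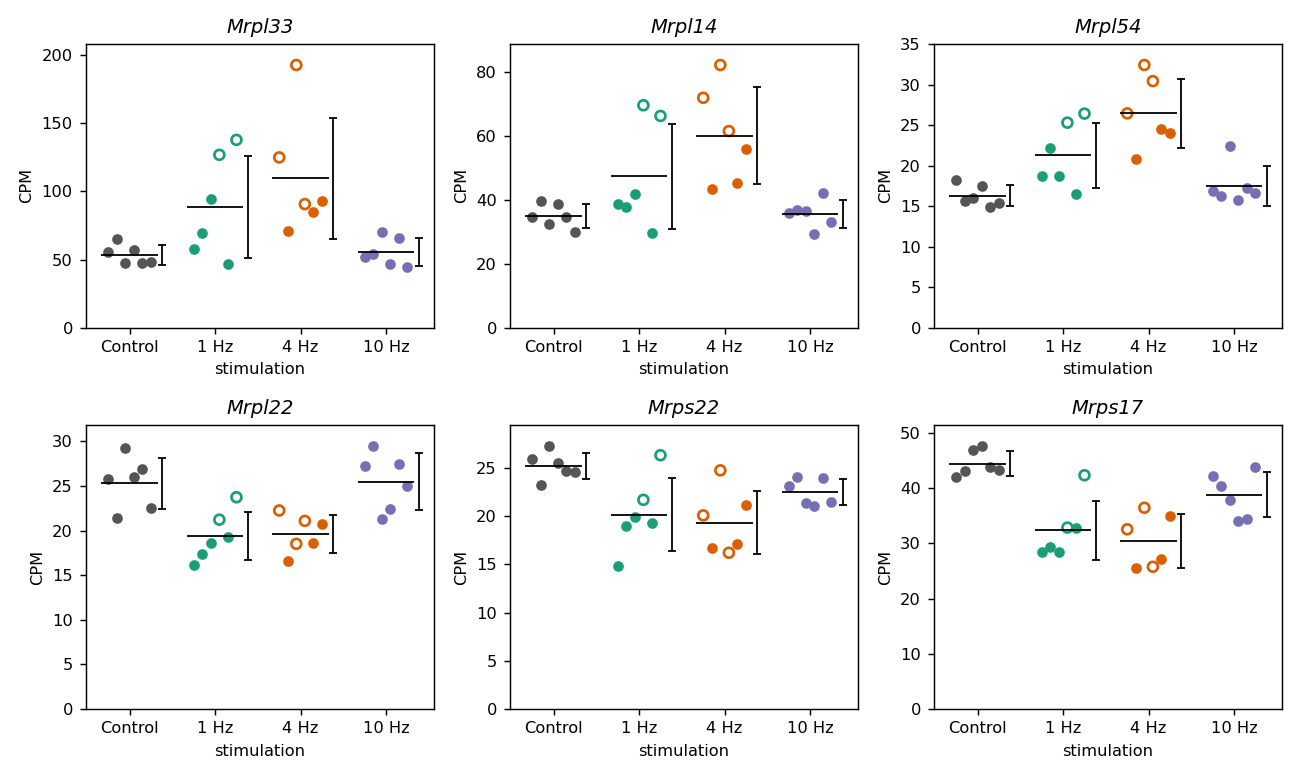
CPM of 6 mitochondrial ribosomal protein genes in each of the 24 libraries, by stimulation, with open circles for the 5 libraries in which long transcripts were low, a line for the group mean, and a bar for the SD (n = 6). Mrpl33, Mrpl14, and Mrpl54 lie above all controls in each 4 Hz library, with the highest values in open circles, whereas Mrpl22, Mrps22, and Mrps17 have lower means at 1 and 4 Hz than in the controls, with filled circles among the lowest values.

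Other genes among those with the smallest p at 4 Hz did not keep the call throughout. Mrpl23 and Mrpl24, at the exit of the tunnel, were higher by 0.58 (adjusted p = 0.00032) and 0.49 (adjusted p = 0.00088) on the log2 scale, and every 4 Hz library lay above the controls. Mrpl23 was not called after the length curve (0.16) and Mrpl24 was not called on log2(TPM + 1) (0.15). Mrpl52, the shortest transcript, had 0.51 (adjusted p = 0.0011) on counts and -0.10 after the length curve. Across the 33 genes that were higher on counts, 8 were still called higher after the length curve, 8 on log2(TPM + 1), and 11 without the 5 libraries. Across the 7 lower genes these numbers were 7, 6, and 5.

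By class, large-subunit genes with a bacterial counterpart had 13 higher and 3 lower of 30 at 4 Hz, and those specific to mitochondria had 10 higher and 0 lower of 21. Small-subunit genes with a bacterial counterpart had 7 higher and 2 lower of 16, and those specific to mitochondria had 2 higher and 2 lower of 10. After the length curve the same 4 classes had 5 higher and 11 lower, 2 higher and 5 lower, 1 higher and 5 lower, and 0 higher and 6 lower. Over all genes tested, 27.5% were higher and 23.9% lower on counts, and 24.8% and 24.5% after the length curve. No class was tested against another.

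Among the genes picked for their role, Mrpl12, which forms the flexible stalk and binds the mitochondrial RNA polymerase, had 65.2 to 81.0 CPM in the controls and 69.2 to 88.0 CPM at 4 Hz and was not called (0.12, adjusted p = 0.37). Mrps12, at the decoding centre, had 0.19 (adjusted p = 0.23). Without 4 Hz replicate 4 these values were 0.058 and 0.10, and without 4 Hz replicate 3 that of Mrpl12 was 0.064. The 3 paralogs descended from 1 bacterial protein did not share a value, as Mrps18a of the large subunit was called higher (0.23, adjusted p = 0.025), Mrps18c had 0.37 (adjusted p = 0.069), and Mrps18b had -0.11 (adjusted p = 0.28). Mrps18c was called higher without 4 Hz replicate 2 (0.46) or 5 (0.43), and had 0.19 without 4 Hz replicate 3. The call for Mrps18a was lost without any 1 of 7 libraries, namely control replicates 2, 3, 4, and 6 and 4 Hz replicates 1, 3, and 4, with values of 0.18 to 0.21, and after the length curve it was -0.11. Mrps30 had -0.09 (adjusted p = 0.41). Mrps36, which is no ribosomal protein, was higher on counts (0.51, adjusted p = 0.0016) with no overlap with the controls, but not after the length curve (0.06, adjusted p = 0.56).

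For the 5 genes that were higher and the 2 that were lower at 4 Hz in every fit, the sequence around the annotated start shows what these promoters hold. Each line runs 5′ to 3′ on the gene's strand of GRCm39 and covers 100 bases before and 20 bases from the start of the canonical transcript in GENCODE M39. Capitals mark matches, on either strand, to an ETS motif (CCGGAAG), the core of the NRF1 motif (GCGCATGC), an SP motif (GGGCGG), or a CCAAT box (CCAAT). The first 5 are the higher genes and the last 2 the lower genes.
Mrpl13, chr15:55421125-55421244, minus strand: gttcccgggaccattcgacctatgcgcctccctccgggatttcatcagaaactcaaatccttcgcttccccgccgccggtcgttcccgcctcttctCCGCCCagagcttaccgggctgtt
Mrpl14, chr17:45997148-45997267, plus strand: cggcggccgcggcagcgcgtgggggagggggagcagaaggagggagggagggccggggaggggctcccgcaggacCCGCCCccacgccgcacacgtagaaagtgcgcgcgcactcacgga
Mrpl33, chr5:31771183-31771302, plus strand: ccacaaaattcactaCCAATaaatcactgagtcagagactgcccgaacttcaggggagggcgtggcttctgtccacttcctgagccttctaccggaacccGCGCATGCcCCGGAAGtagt
Mrpl53, chr6:83085921-83086040, plus strand: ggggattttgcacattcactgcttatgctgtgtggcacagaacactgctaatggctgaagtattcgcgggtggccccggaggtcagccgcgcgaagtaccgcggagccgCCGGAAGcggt
Mrpl54, chr10:81102749-81102868, minus strand: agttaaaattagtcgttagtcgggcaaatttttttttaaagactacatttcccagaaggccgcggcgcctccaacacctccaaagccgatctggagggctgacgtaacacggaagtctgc
Mrpl22, chr11:58062375-58062494, plus strand: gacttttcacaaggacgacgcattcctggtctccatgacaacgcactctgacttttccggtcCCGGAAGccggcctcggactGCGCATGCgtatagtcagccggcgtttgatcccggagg
Mrps22, chr9:98483701-98483820, minus strand: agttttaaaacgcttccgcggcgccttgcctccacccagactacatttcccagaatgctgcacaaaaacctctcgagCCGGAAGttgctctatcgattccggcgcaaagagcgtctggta
Both lower genes held the ETS letters in this window, as did Mrpl33 and Mrpl53 among the higher genes, and Mrpl22 and Mrpl33 also held the NRF1 core. Mrpl54 held none of the 4. Between 250 bases before and 50 after the start, the ETS letters occurred in 24 of the 78 promoters (30.8%) compared with 15.8% of the 12102 promoters of protein-coding genes tested. The NRF1 core occurred in 7 of 78 (8.97%) compared with 4.99%, and a YY1 motif (AAGATGGC) in 6 of 78 (7.69%) compared with 3.60%. SP letters were in 42.3% compared with 58.8%, CCAAT in 34.6% compared with 40.1%, the E-box CACGTG in 6.41% compared with 10.3%, and TATAAA in 10.3% compared with 8.17%. Such matches are letters in a window and not sites of binding.

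Many of these genes start head to head with another gene. An opposite-strand start of a protein-coding gene lay within 1000 bases upstream, or up to 200 bases downstream, of the start for 20 of the 78 genes (25.6%), compared with 9.61% of protein-coding genes tested. Mrpl46 and Mrps11, of the 2 different subunits, start 30 bases apart. The pairs named here were not picked by a fixed rule. Mrpl41 starts 101 bases from Pnpla7, and both were higher at 4 Hz (0.66, adjusted p = 0.0093, and 0.32, adjusted p = 0.023). After the length curve Mrpl41 had 0.26 and was not called. Mrpl43 starts 56 bases from Twnk, the helicase of mitochondrial DNA, which fell at 4 Hz (-0.52, adjusted p = 2.0e-05) while Mrpl43 had 0.10 (adjusted p = 0.39). Mrpl49 starts 52 bases from Fau, a cytosolic ribosomal protein gene, which rose (0.75, adjusted p = 0.00015) while Mrpl49 had 0.02 (adjusted p = 0.83). Mrps34 was higher (0.31, adjusted p = 0.015) beside Eme2, which fell (-1.03, adjusted p = 2.9e-06) and overlaps it by 183 bases from start to start. The call for Mrps34 was lost after the length curve (-0.0081, adjusted p = 0.93), on log2(TPM + 1) (-0.02), and without the 5 libraries (0.15, adjusted p = 0.17). In all, 58 of the 78 genes share bases with a gene annotated on the other strand. How strand was used in counting is not stated, so reads of overlapping partners may not be told apart.

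At 1 Hz fewer of the genes were called. On counts 10 were higher and 7 lower than in the controls, compared with 19.2% and 18.1% of all genes tested, with a median of 0.09 beside 0.04. In 0 of the 78 genes did all 1 Hz libraries lie outside the range of the controls, where the shares over all genes tested were 5.55% above and 8.58% below. Beyond a log2(fold change) of 0.5 were 3 of the higher genes, Mrpl33, Mrpl41, and Mrpl53, and 0 of the lower genes, compared with 7.19% and 7.74% of all genes tested. The number higher was 2 without 1 Hz replicate 6, 3 without 1 Hz replicate 4, 5 or 6 without control replicate 4, 5, or 6, and 16 without 1 Hz replicate 5, and the number lower was 4 without control replicate 3 or 1 Hz replicate 1 or 2. The median rested on 2 libraries, as it was 0.0033 without 1 Hz replicate 4 and -0.0073 without 1 Hz replicate 6. With the length curve 1 gene was higher and 21 were lower (19.3% and 19.0% of all genes), and with log2(TPM + 1) 1 was higher and 18 were lower (3.58% and 21.9%), with a median of -0.15 beside -0.14. Without the 5 libraries 1 was higher and 15 were lower (15.8% and 16.4%), with a median of -0.10.

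Mrpl22 and Mrps27, a mitochondria-specific small-subunit protein of the pentatricopeptide repeat family, were lower at 1 Hz in every fit. Mrpl22 had 16.2, 18.9, and 23.7 CPM at 1 Hz (-0.38 ± 0.10, adjusted p = 0.0054), and 5 of 6 libraries lay below all controls. Mrps27 had 22.9, 26.9, and 28.3 CPM in the controls and 20.5, 22.2, and 24.8 CPM at 1 Hz, with 3 libraries below all controls (-0.24 ± 0.077, adjusted p = 0.018).

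Mrps17 had the smallest p at 1 Hz, with 28.4, 31.1, and 42.4 CPM (-0.46 ± 0.10, adjusted p = 0.0011), and as at 4 Hz the offset of its own effective length ended the call (-0.25). None of the 10 genes higher at 1 Hz was called in every fit. Mrpl23 (0.46, adjusted p = 0.0042) had 0.17 after the length curve, Mrpl24 (0.41, adjusted p = 0.0069) had 0.20 without the 5 libraries, and Mrpl54 (0.39, adjusted p = 0.011) had 0.07 after the length curve and lost the call without 1 Hz replicate 6 (0.29). None of these values was called. The 1 and 4 Hz comparisons share the control libraries, so their likeness is not independent evidence.

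At 10 Hz none of the 78 genes was called by edgeR in either direction, where 0.015% of all genes tested were higher and 0.0225% lower. At an unadjusted p under 0.05 the number was also 0 of 78, compared with 8.07% of all genes tested, and DESeq2, limma, and both length treatments called 0 as well, where the length curve called 0.0676% of all genes in each direction. The median log2(fold change) was -0.02 beside 0.01 over all genes, and the 78 values ran from -0.20 to 0.15. The smallest p was that of Mrps17 with 34.05, 39.1, and 43.9 CPM (-0.20 ± 0.10, adjusted p = 0.65), and 4 of its 6 libraries lay below all controls. Mrps22 (-0.16, adjusted p = 0.76), Mrps35 (-0.16, adjusted p = 0.85), Mrpl19 (-0.13, adjusted p = 0.85), and Mrps5 (-0.11, adjusted p = 0.86) were next among those below 0, and Mrps18b had 0.10 (adjusted p = 0.85). None of these was called when 1 library was left out, and the values then ran from -0.15 to -0.059 for Mrps5 and from 0.055 to 0.15 for Mrps18b.

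Between frequencies, 10 Hz against 4 Hz gave 4 genes higher and 32 lower on counts (21.9% and 24.4% of all genes tested), with a median of -0.17 beside -0.05. Beyond a log2(fold change) of 0.5 were 0 higher and 13 lower (10.6% and 10.6% of all genes). Again the length curve turned the balance, to 19 higher and 9 lower (22.7% and 22.8% of all genes). The number lower was 17 without 10 Hz replicate 6 and 21 without 4 Hz replicate 3 or 4. Mrpl22 was higher at 10 Hz than at 4 Hz in every fit (0.38, adjusted p = 0.0047), with 21.3 to 29.5 CPM at 10 Hz. Mrpl14, Mrpl24, Mrpl28, Mrpl33, and Mrpl53 were lower in every fit, and in these 5 genes no 10 Hz library reached the range of 4 Hz. Over the 78 genes, 1 had every 10 Hz library above every 4 Hz library and 9 had every one below, compared with 10.8% and 8.1% of all genes tested.

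Against 1 Hz, 10 Hz gave 2 genes higher and 6 lower (14.8% and 13.1% of all genes tested), with Mrpl22 higher in every fit, and beyond a log2(fold change) of 0.5 were 0 higher and 2 lower (5.85% and 4.99%). The length curve turned this balance too, to 12 higher and 3 lower (15.8% and 14.8% of all genes). With log2(TPM + 1) 11 were higher and 0 lower (15.5% and 2.19%), and without the 5 libraries 9 were higher and 0 lower (11.2% and 9.5%). The median was -0.09 on counts, 0.13 on log2(TPM + 1), and 0.08 without the 5 libraries. On log2(TPM + 1) the calls over all genes tested leaned the same way. Leaving out 1 library gave 1 to 14 lower, the fewest without 1 Hz replicate 4 and the most without 1 Hz replicate 5, and 4 higher without 1 Hz replicate 6. Between 4 and 1 Hz none of the 78 genes was called, nor was any of all genes tested (0%), although 2 of 78 had an unadjusted p under 0.05, compared with 11% of all genes tested. The median of the 78 genes in that comparison was 0.08.

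The other genes of mitochondrial transcription and translation were set beside the ribosomal proteins, and their counts at 4 Hz stand against the 27.5% of all genes tested that were higher and the 23.9% that were lower. Of 9 genes for mitochondrial transcription and DNA maintenance, 0 were higher and 6 lower at 4 Hz, with a median of -0.36. The count of lower genes was 5 after the length curve, 7 on log2(TPM + 1), and 6 without the 5 libraries. Over all genes tested, the shares lower in these 3 alternatives were 24.5%, 35.9%, and 19.9%. Polrmt, the mitochondrial RNA polymerase, had -0.61 ± 0.079 (adjusted p = 8.1e-07) at 4 Hz and -0.65 (adjusted p = 7.3e-07) at 1 Hz. Of 14 translation factors and mRNA-binding proteins tested, 2 were higher and 8 lower at 4 Hz with a median of -0.26, and 9, 10, and 9 were lower in the same 3 alternatives. Among them Lrpprc, which stabilises mitochondrial mRNAs, had -0.61 (adjusted p = 8.2e-07) and Mtfmt, which formylates the initiator tRNA, had -0.76 (adjusted p = 0.00060). Mtrf1 did not pass the filter.

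Of 17 mitochondrial aminoacyl-tRNA synthetases, 2 were higher and 7 lower at 4 Hz with a median of -0.18, and Rars2 and Hars2, for arginine and histidine, had -1.15 (adjusted p = 5.2e-09) and -0.87 (adjusted p = 5.1e-06). Of 28 assembly factors 7 were higher and 8 lower, with a median of -0.02, and the methyltransferase-like Mettl17 and the GTPase Noa1, both of the small subunit's assembly, had -0.94 (adjusted p = 6.7e-07) and -0.85 (adjusted p = 3.2e-06). Of 6 further genes of the particle with other symbols, among them the insertase Oxa1l that binds it, 4 were higher and 1 lower. The short Chchd1 had 0.83 (adjusted p = 0.0063) and Ptcd3, a pentatricopeptide repeat protein of the small subunit, had -0.61 (adjusted p = 7.3e-07).

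For comparison, and against the same 27.5% and 23.9% of all genes, 79 of 79 cytosolic ribosomal protein genes were higher at 4 Hz on counts with a median of 0.59, and 45 were higher and 2 lower after the length curve. Of 65 nuclear genes for respiratory chain and ATP synthase subunits, 52 were higher and 0 lower with a median of 0.46, and 16 were higher and 4 lower after the length curve. With that curve 24.8% of all genes tested were higher and 24.5% lower. The 2 mitochondrial rRNAs, the partners of these proteins in the particle, were higher at 4 Hz on counts, with mt-Rnr1 at 1.37 ± 0.48 (adjusted p = 0.023) and mt-Rnr2 at 1.34 ± 0.48 (adjusted p = 0.025). They lack long poly(A) tails, their counts ran from 737 to 9922 CPM for mt-Rnr2 among the 4 Hz libraries, and the part of library preparation in this difference was not tested. The lists were not tested against each other.

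**Figure D5:**
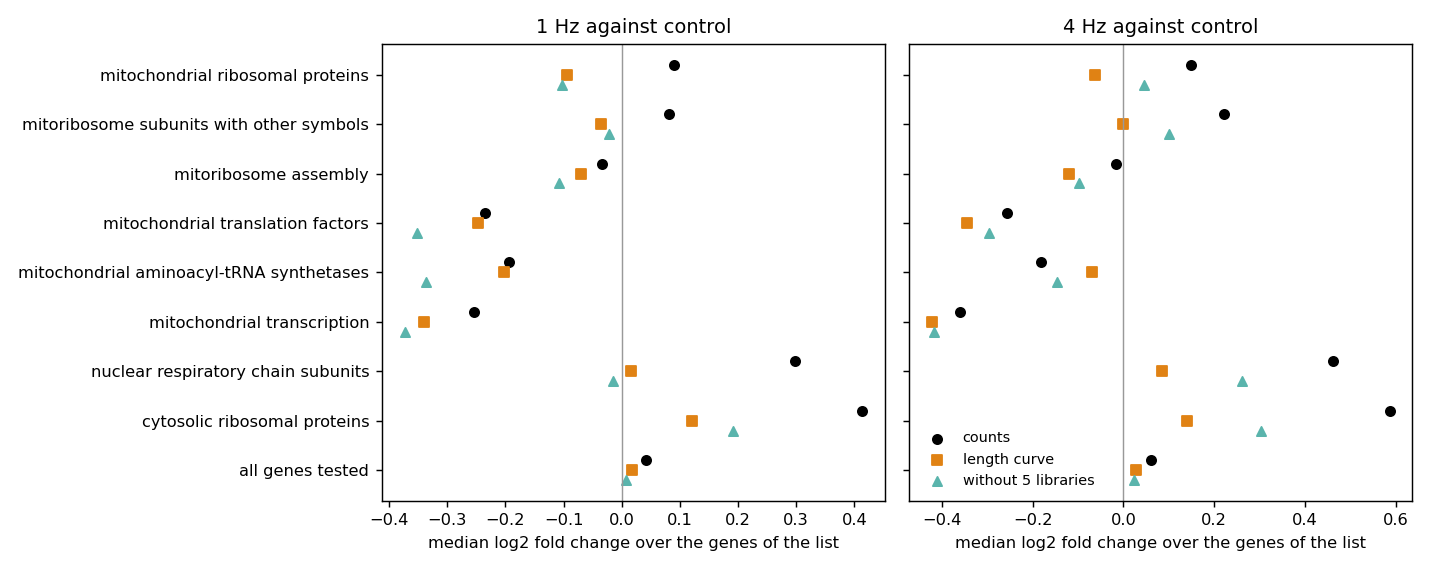
Median log2(fold change) at 1 Hz and 4 Hz against the controls over the genes of 9 lists, from the fit of counts (black circles), after the length curve (orange squares), and without the 5 libraries in which long transcripts were low (green triangles). The median of the mitochondrial ribosomal proteins lies to the right of 0 on counts and to the left after the length curve, at 0.15 and -0.06 at 4 Hz, whereas the medians of translation factors, synthetases, and mitochondrial transcription are under 0 in all 3.

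Within the groups the 78 genes moved together on the CPM scale. With group means removed, the median correlation over the 3003 pairs of genes and 24 libraries was 0.58 on log2 CPM and 0.20 on log2(TPM + 1). Between the 26 shortest and the 26 longest transcripts the median was 0.50 on log2 CPM and 0.05 on log2(TPM + 1), and within the 26 longest it was 0.46 and 0.38. The pairs share libraries, depth, and the length slope, so these are descriptions.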

How the data were processed

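RNA from 24 tissues (6 per group) was sequenced by the authors from directional libraries. The deposited estimated counts per gene are salmon values of the authors' nf-core/rnaseq pipeline on GRCm39, not normalized, of which 6.15% are not whole numbers. The deposited TPM values were scaled by the authors for length and depth. The submitters' notes also list BWA, bedtools, and STAR. Positions came from GENCODE M39, which held 98.9% of the identifiers.

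Counts were rounded, filtered with filterByExpr (minimum count 10, minimum total 15), and scaled by TMM. A robust quasi-likelihood test in edgeR 4.0.16 (R 4.3.3) fitted all 24 libraries together with Benjamini-Hochberg adjustment over 13315 genes, which was checked on simulated data. The biological coefficient of variation was 14.8%. CPM are TMM-scaled. Effective length is estimated count divided by TPM, relative to the median gene. The length curve is a lowess (span 0.3) on that length, for each library, of log2 CPM less the gene's mean over the libraries. Alternatives used DESeq2 1.42.0 and limma 3.58.1 on log2(TPM + 1) and log2(TPM + 0.1). Leaving out 5 libraries (length slope under -0.1) was chosen after seeing the data. The genes and lists were chosen with earlier results of these data known. Genes named by rule are the 6 with the smallest p at each frequency, the smallest p against the median direction, the 4 highest and 4 lowest in control TPM, 6 picked by role, and 2 with the smallest p at 4 Hz from each other list. Mrpl13, Mrpl28, Mrpl53, Mrps2, Mrps36, and the head-to-head pairs were named outside these rules. Fibroblast, adipocyte, and neuron markers were also checked. Adipocyte and neuron markers summed to at most 1.04 and 0.636 TPM, and fibroblast markers to 191 to 422 TPM.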

Additional observations from a re-analysis of the deposited data

Results flagged for a closer look

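In groups of 6 libraries, 6 of 108 groups tested had a library whose gap to its nearest neighbour exceeded the 95% critical value of Dixon's test, and chance gives about 1 in 20. Mrpl23 had 21.0 CPM in 4 Hz replicate 4, and the next library had 16.3 CPM. Mrpl24 had 61.1 CPM in control replicate 1, and the next had 53.4 CPM. Mrpl54 had 22.5 CPM in 10 Hz replicate 3, and the next had 17.2 CPM. Mrps17 had 42.4 CPM in 1 Hz replicate 6, and the next had 32.9 CPM. Mrps5 had 38.97 CPM in 1 Hz replicate 4, and the next had 29.3 CPM. The sum over the 78 genes was 5995 TPM in 4 Hz replicate 1, and the next had 5249 TPM. In each case the library apart was the highest of its group, and 4 of the 6 were among the 5 libraries in which long transcripts were low. The cause was not tested.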

How the results depend on the processing

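Of 294 recomputed values for the counts and medians of the 6 comparisons, 257 stayed within the margin used. The share of all genes tested that edgeR called in either direction was 37.3% at 1 Hz and 51.4% at 4 Hz. It was 27.9% for 10 Hz against 1 Hz and 46.3% for 10 Hz against 4 Hz. Among the 78 genes these shares were 21.8%, 51.3%, 10.3%, and 46.2%. The number of the 78 genes changed, 17 at 1 Hz, 40 at 4 Hz, 8 for 10 Hz against 1 Hz, and 36 for 10 Hz against 4 Hz, fell to 3, 15, 2, and 13 with a log2(fold change) beyond 0.5 required. With no filter on low counts it was 9 at 1 Hz and 4 for 10 Hz against 1 Hz. Without the 5 libraries it was 17 at 4 Hz and 12 for 10 Hz against 4 Hz, and with the length curve 15 for 10 Hz against 1 Hz. Leaving out 1 library at a time gave 10 to 22 at 1 Hz, 31 to 41 at 4 Hz, 3 to 17 for 10 Hz against 1 Hz, and 21 to 37 for 10 Hz against 4 Hz. At 1 Hz 10 or 11 were called without control replicate 4, 5, or 6 or 1 Hz replicate 4 or 6. For 10 Hz against 1 Hz the extremes were 3 without 1 Hz replicate 4 and 17 without 1 Hz replicate 5, with 14 without 1 Hz replicate 1 and 5 without 1 Hz replicate 3 or 10 Hz replicate 1, 2, 4, or 6. For 10 Hz against 4 Hz, 21 were called without 10 Hz replicate 6. The medians were 0.09 at 1 Hz, 0.15 at 4 Hz, -0.09 for 10 Hz against 1 Hz, and -0.17 for 10 Hz against 4 Hz. In the same order they were -0.15, -0.14, 0.13, and 0.10 on log2(TPM + 1), and -0.15, -0.14, 0.13, and 0.11 on log2(TPM + 0.1). With the length curve they were -0.094 at 1 Hz, -0.062 at 4 Hz, and 0.043 for 10 Hz against 4 Hz, and without the 5 libraries -0.10 at 1 Hz and 0.081 for 10 Hz against 1 Hz. Leaving out 1 library gave medians of -0.0073 to 0.15 at 1 Hz, 0.11 to 0.19 at 4 Hz, -0.14 to -0.01 for 10 Hz against 1 Hz, and -0.21 to -0.13 for 10 Hz against 4 Hz. On log2(TPM + 1) the calls over all genes tested leaned the same way as the medians of the 78 genes. At 1 Hz 3.58% of all genes were higher and 21.9% lower, and at 4 Hz 5.83% and 35.9%. For 10 Hz the shares were 15.5% and 2.19% against 1 Hz, and 33.2% and 5.06% against 4 Hz.

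Single genes turned sign at 4 Hz as follows. With the length curve Mrpl52 was -0.10, Mrps18a -0.11, Mrps18c -0.18, Mrpl12 -0.058, and Mrps12 -0.24. On log2(TPM + 1) and log2(TPM + 0.1) Mrps18a was -0.11 in both, Mrpl12 -0.24 in both, and Mrps12 -0.20 and -0.21. Without the 5 libraries Mrps18c was -0.0059 and Mrpl12 -0.053. At 10 Hz Mrps35 was 0.11 on both TPM scales and 0.12 with the length offset. That the length curve and the length offset changed values follows from their construction. Why values turned sign on the TPM scales or without the 5 libraries was not tested. Replicate numbers did not pair the samples, as the correlation of deviations of same-numbered libraries ran from -0.33 to 0.24 over 36 pairs (3 over 0.1). With the replicate number as a block, 14 genes changed at 1 Hz, 39 at 4 Hz, 5 for 10 Hz against 1 Hz, and 34 for 10 Hz against 4 Hz. Whether poly(A) selection or ribodepletion was used for a given library was not tested on the deposited values.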
